A study of Drosophila melanogaster with 11 samples.

Results

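At zygotic genome activation (ZGA), 144 genes of Drosophila melanogaster had fewer transcripts in embryos depleted of maternal Domino than in control embryos. All had few or no counts in unfertilized eggs, which does not show that the mother supplies none. They were chosen by a rule on RNA-seq counts, and the same counts are described here. A gene was taken when it had at most 5 counts in each library of unfertilized eggs and a mean of at least 10 counts over the 7 embryo libraries. In addition, its CPM, the count scaled to the total of the library, had to be below the lowest Ctrl embryo in all DomKD embryos, and its mean DomKD CPM at most 0.5 of its mean Ctrl CPM. Of 845 genes that met the limits on egg and embryo counts, called zygotic genes here, 194 met the whole rule (23%). Leaving out 50 that are named only by a CG number gave the 144 genes, out of 17753 genes in the table. The contrast of DomKD with Ctrl embryos chose these genes, so their lower level is a description and is not tested.

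Early embryos live on RNA and protein from the egg, and their own genome is switched on step by step, with broad transcription when the nuclei at the surface become enclosed in cells. Many of the first genes need the pioneer factor Zelda, while others do not. Domino is an ATPase of the Tip60 and SWR1 type of chromatin complex that exchanges histone H2A for its variant H2A.Z, encoded by His2Av, which sits around the start sites of many active genes.

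Libraries of total RNA were made from staged embryos and from eggs. The DomKD embryos (4 libraries, labelled genotype t216, stage 5, in nuclear cycle 14) came from mothers whose germline expressed a short hairpin RNA against both isoforms of domino under a maternal Gal4 driver. The Ctrl embryos (3 libraries, replicates 2 to 4, labelled t180, same stage) came from mothers with the same driver and a control line of the same hairpin collection. The Ctrl eggs (4 libraries, t180) were unfertilized. The hairpin acts in the mother's germline, so embryos start with little domino RNA and carry their own intact gene. Each group is 1 genotype, so a difference between the fly lines cannot be told apart from one due to Domino. The labels give no age within stage 5, so a difference in age cannot be told apart either. No label says that the libraries of a group came from separate collections of embryos, so p-values measure the spread between these libraries only. Embryos were sequenced whole, in which fewer cells expressing a gene and less RNA per cell cannot be told apart.

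The DomKD libraries held 11809453 to 15712506 counts on genes, the Ctrl embryos 12642275 to 16310645 and the eggs 15387133 to 17700171. The target dom was at 65.5, 73.6, 102 and 56.5 CPM in DomKD replicates 1 to 4, against 2051, 1872 and 1939 CPM in Ctrl replicates 2 to 4. His2Av averaged 1050 ± 58.4 CPM in DomKD embryos (SD, n = 4) and 1047 ± 41.4 CPM in Ctrl embryos (SD, n = 3), and its log2 fold change of 0.06 (edgeR, adjusted p = 0.521) turned to -0.0365 with size factors from Zelda-dependent genes. The gene zld, which encodes Zelda, averaged 674 ± 194 CPM in DomKD and 615 ± 57.5 CPM in Ctrl embryos, without a call (edgeR, adjusted p = 0.502).

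The ratio of mean DomKD to mean Ctrl CPM ran from 0.00622 for dpr4 to 0.499 for Atx-1, with a median of 0.312 over the 144 genes. It was at most 0.25 in 46 of them and over 0.4 in 37. The median ratio was 0.878 over all 845 zygotic genes. It was 1.03 over the 651 others, a value raised by the rule, which took lower genes out. At the limit of the rule, AdamTS-B and ktub (both 0.498) and Atx-1 (0.499) lay just inside, while RyR (0.501), Oatp74D and toy (both 0.502) lay just outside and also had no overlap between the groups. With CG-numbered genes left out, 44 zygotic genes had every DomKD library below the lowest Ctrl library and a ratio above the limit.

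**Figure D1:**
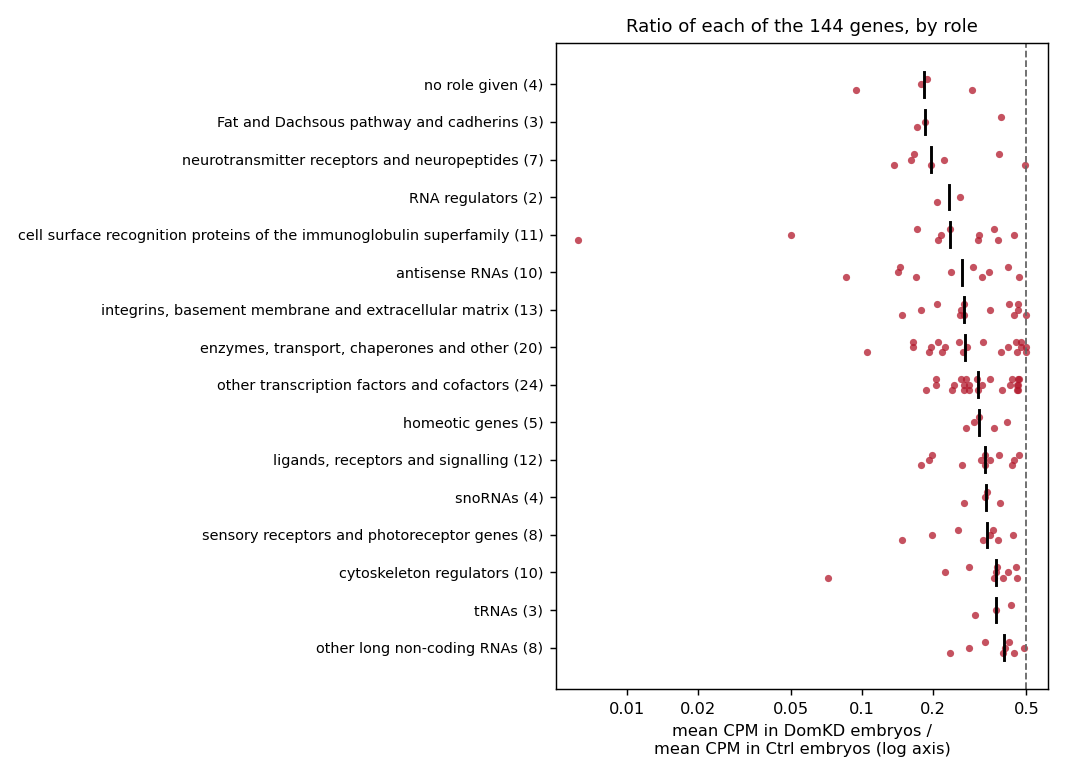
Ratio of mean CPM in DomKD to mean CPM in Ctrl embryos on a log axis, with 1 point for each gene, grouped by role; black bars are medians and the dashed line is the limit of 0.5. The points spread from 0.00622 to 0.499, and group medians lie between 0.183 and 0.4.

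Most of the genes are weakly expressed. In TPM, which is scaled to the library and corrects for exon length, their mean level in Ctrl embryos had a median of 2.55, with 23 genes over 10 TPM and 21 under 1 TPM. Summed over the set, the level was 413 TPM in DomKD and 1112 TPM in Ctrl embryos. The mean count over the 7 libraries was under 30 in 83 genes and at least 100 in 22, so the level of the majority carries a large counting error. In eggs, 74 of the genes had 0 counts in each library, 44 had 1 or 2 at most and 26 had 3 to 5.

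Library by library, the DomKD embryos were not alike. The summed CPM of the 144 genes was 708, 337, 697 and 449 in DomKD replicates 1 to 4, against 1499, 1155 and 1799 in Ctrl replicates 2 to 4. Replicates 1 and 3 of DomKD lay close together, replicate 2 lowest, and all were below the lowest Ctrl library, which follows from the rule. The median gene stood at 0.364, 0.235, 0.357 and 0.270 of the Ctrl mean in the DomKD libraries and at 1.004, 0.826 and 1.13 in the Ctrl libraries. Replicate 2 was the lowest DomKD library for 68 of the 144 genes, and replicate 3 the lowest Ctrl library for 99. The 651 other zygotic genes shared much of this order, with DomKD replicates 1 and 3 above 2 and 4 and Ctrl replicate 4 highest, at medians of 1.16, 0.906, 1.12 and 0.834 in DomKD and 0.918, 0.926 and 1.15 in Ctrl embryos.

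The yolk protein genes Yp1, Yp2 and Yp3, which are made in fat body and follicle cells of the mother, stood out in the same pair of libraries. Their summed CPM was 0.726, 3.56, 0.254 and 0.219 in DomKD replicates 1 to 4, against 0.429, 17.4 and 0.554 in Ctrl replicates 2 to 4. Whether this has a part in the order of the libraries was not tested. Without DomKD replicate 2 and Ctrl replicate 3, an alternative chosen after seeing the data, the rule gave 147 genes, 127 of them among the 144. Of the 144, edgeR called 101 of the 137 that could be fitted lower, which follows from how they were chosen. Over all genes tested, that fit called 715 lower and 281 higher.

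**Figure D2:**
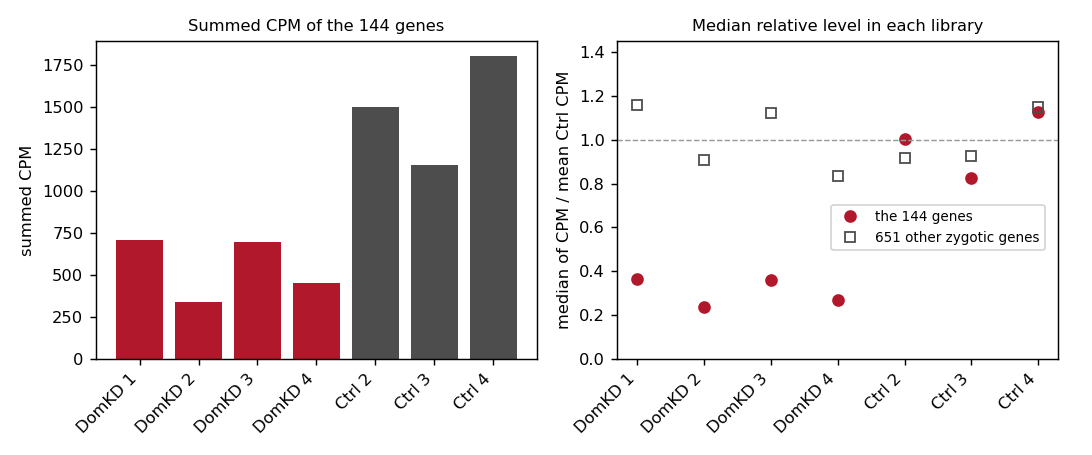
Left, summed CPM of the 144 genes in each library; right, the median over genes of CPM divided by the gene's mean Ctrl CPM, for the 144 genes (filled circles) and the 651 other zygotic genes (open squares). The 144 genes lie at 0.235 to 0.364 in DomKD and 0.826 to 1.13 in Ctrl libraries, while the other genes overlap between the groups. This contrast follows from the rule, which took the lower genes out of the others.

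Transcription factors form the largest group by role, with 5 homeotic genes and 24 others. The highest of these per length was ci, the transcription factor that carries the Hedgehog signal (chromosome 4, positions 47710 to 57041 of dm6, minus strand). It was at 161, 56.1, 176 and 89.6 CPM in DomKD replicates 1 to 4, against 251, 177 and 363 CPM in Ctrl replicates 2 to 4. The highest DomKD and lowest Ctrl libraries nearly touched, DomKD replicate 2 was far below the rest, and ci had a mean of 41.3 TPM in DomKD and 90.9 TPM in Ctrl embryos.

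The paralogs dan and danr, nuclear proteins with a Pipsqueak DNA-binding domain known from antenna and neuroblasts, both lie on chromosome 3R, more than 20 kb apart. For dan, the values were 59.9, 11.3, 47.4 and 37.2 CPM in DomKD, against 148, 88.3 and 142 CPM in Ctrl embryos. For danr, they were 27.2, 5.92, 17.5 and 14.2 CPM in DomKD, against 40.4, 27.9 and 38.6 CPM in Ctrl embryos. Both genes had their lowest value in DomKD replicate 2 and, for Ctrl, in replicate 3, and danr in DomKD replicate 1 came close to Ctrl replicate 3. Bili, whose end is 1362 nt from danr, is also in the set, with a ratio of 0.416.

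Of the 8 homeotic genes, which give segments their identity along the body axis, 6 had enough counts to be fitted and 5 belong to the set. Antp was at 7.18, 2.42, 6.44 and 5.48 CPM in DomKD, against 21.7, 11.5 and 18.4 CPM in Ctrl embryos. Dfd was at 3.23, 1.65, 2.71 and 2.56 CPM in DomKD, against 8.09, 4.98 and 7.91 CPM in Ctrl embryos. In both, replicate 2 was lowest among DomKD and replicate 3 among Ctrl libraries.

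Ubx had a ratio of 0.415, Scr of 0.299 and Abd-B of 0.276. For Scr and Abd-B these rest on a mean of 12 and 12.6 counts. The homeotic gene outside the set, abd-A, averaged 4.37 CPM in DomKD and 4.97 CPM in Ctrl embryos, and its log2 fold change of -0.14 did not pass the test (edgeR, standard error 0.50, adjusted p = 0.858). It turned positive, at 0.18 and 0.26, without DomKD replicate 2 and without Ctrl replicate 4.

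Factors of the dorsal ectoderm, midline and mesoderm were among the other 24. The GATA factor gene pnr, needed in the dorsal ectoderm and heart, was at 3.79, 1.97, 1.61 and 2.56 CPM in DomKD, against 11.7, 7.23 and 8.62 CPM in Ctrl embryos. Its relative grn was at 1.77, 0.127, 1.35 and 2.34 CPM in DomKD, against 9.93, 3.95 and 8.62 CPM in Ctrl embryos. In DomKD replicate 2, grn was far lower than in the other libraries.

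The LIM homeobox gene tup had a ratio near the limit (0.459), as did the nuclear receptor gene knrl (0.424) and the coactivator gene eya (0.433). Lower were sim (0.205), the regulator of midline cells, tin (0.241), the NK homeobox gene of heart and visceral mesoderm, and ind (0.312), a homeobox gene of the neural ectoderm. Homeobox, paired and T-box genes of segments and appendages were Dll (0.276), which starts limb formation, gsb (0.324), mid (0.393), Gsc (0.272), B-H1 (0.349), ct (0.207), onecut (0.285) and E5 (0.455). The remaining factors were drm of the odd-skipped family (0.285), ham (0.263), Sox14 (0.245), bab2 (0.462) and HmgZ (0.465), a chromosomal high mobility group protein. HmgZ was among the strongest of the set, at 22.8 TPM in DomKD and 49.4 TPM in Ctrl embryos.

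**Figure D3:**
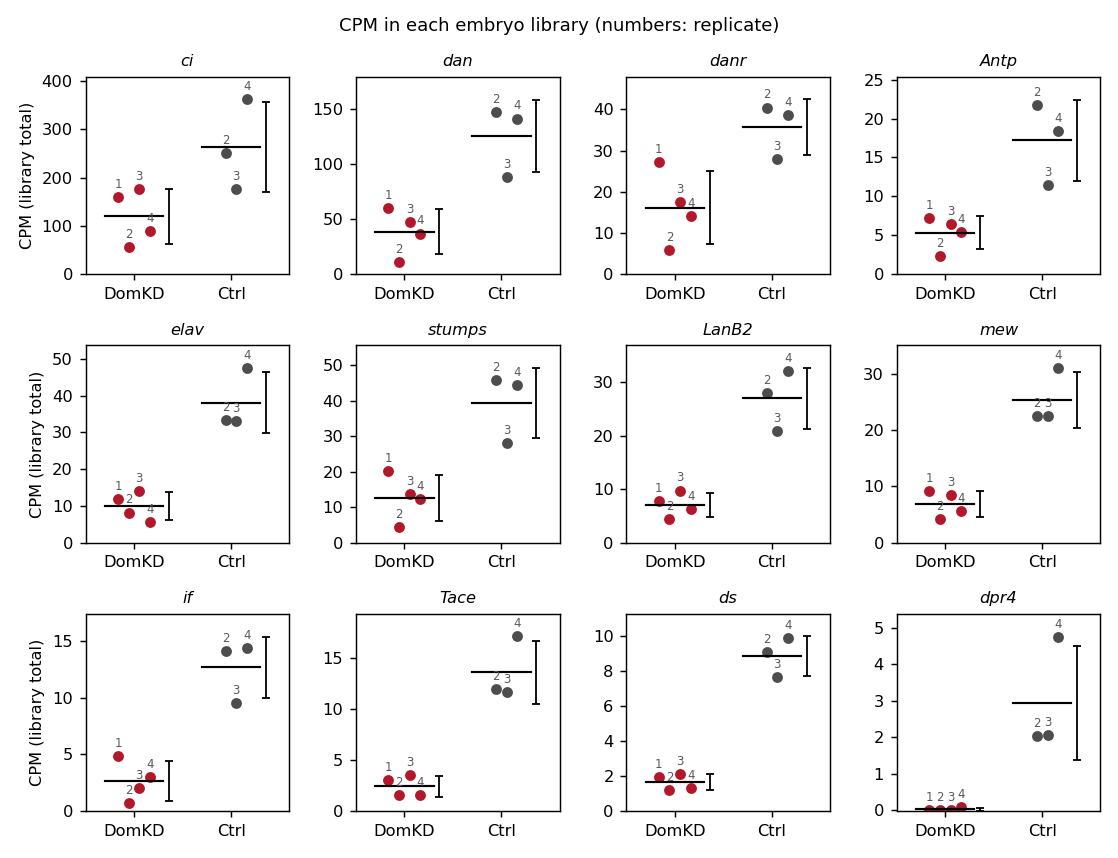
CPM of 12 genes in each embryo library, DomKD left and Ctrl right, with a linear axis for each gene; numbers are replicates, horizontal bars are means and error bars are 1 SD. In each panel all 4 DomKD points lie below all 3 Ctrl points, which the rule required, and DomKD replicate 2 is lowest or close to lowest in most panels.

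Receptors for the extracellular matrix and the matrix itself account for 13 genes, with a median ratio of 0.272. Integrins join cells to the matrix, and 3 of their alpha chains are in the set. The alpha chain gene mew was at 9.19, 4.26, 8.47 and 5.62 CPM in DomKD, against 22.4, 22.4 and 31.1 CPM in Ctrl embryos. Another, if, was at 4.84, 0.700, 2.03 and 3.00 CPM in DomKD, against 14.2, 9.54 and 14.4 CPM in Ctrl embryos. The DomKD values of if spread 6.9-fold between libraries, and those of mew far less. The last alpha chain gene, ItgaPS5, had a ratio of 0.148 from a mean of 13.4 counts.

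Laminins are the trimers from which basement membranes are built. LanB2, their gamma chain, was at 7.82, 4.39, 9.74 and 6.21 CPM in DomKD, against 28.0, 20.8 and 32.1 CPM in Ctrl embryos. The alpha chain gene wb was at 22.7, 17.4, 21.8 and 19.8 CPM in DomKD, against 46.2, 31.8 and 55.3 CPM in Ctrl embryos. For wb the DomKD libraries agreed closely and the Ctrl libraries did not, while LanB2 varied in both. The lncRNA gene CR43639, which overlaps the span of wb on the same strand without sharing exons, is itself in the set with a ratio of 0.444. Other matrix genes were the proteoglycan genes trol (0.441) and dally (0.350), the proteases AdamTS-A (0.263) and AdamTS-B, the collagen prolyl hydroxylase PH4alphaEFB (0.178), the surface proteins sas (0.272) and pio (0.420), and the adhesion adaptor p130CAS (0.461).

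Cadherins and the Fat and Dachsous pathway, which orients cells and restrains growth, gave 3 genes. The atypical cadherin ds was at 1.94, 1.21, 2.12 and 1.31 CPM in DomKD, against 9.07, 7.63 and 9.89 CPM in Ctrl embryos. Cad74A was at 26.6, 20.05, 41.1 and 21.3 CPM in DomKD, against 73.5, 54.6 and 82.8 CPM in Ctrl embryos. The ratio was 0.185 for ds and 0.388 for Cad74A, and DomKD replicate 3 was the highest DomKD library for both. Dlish, an adaptor of the same pathway, had a ratio of 0.171, and shares exons with Snx16 on the other strand, which was also lower (edgeR, adjusted p = 0.0171).

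The immunoglobulin superfamily supplied 11 surface proteins, of which the dpr and DIP families, and the beat and side families, bind each other and guide synaptic partners and motor axons. The gene with the lowest ratio of the set, dpr4, had 0, 0, 0 and 1 counts in DomKD, against 33, 30 and 60 counts in Ctrl embryos. It was followed by side-VII, with 1, 3, 0 and 1 counts in DomKD, against 28, 23 and 24 counts in Ctrl embryos. With 3 counts per library as the floor, dpr4 was at least 13.0-fold and side-VII at least 7.63-fold lower in DomKD embryos.

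These were the only 2 genes of the set with at most 3 counts in every DomKD library. The family members dpr1 (0.217), dpr7 (0.313), dpr19 (0.211), DIP-eta (0.312), DIP-theta (0.172), DIP-epsilon (0.441), side-V (0.237), beat-IIIc (0.378) and Dscam2 (0.362) remained detectable. Of these, beat-IIIc had the highest level per length, at 1.89 TPM in DomKD and 5.002 TPM in Ctrl embryos, and the others were at 0.703 to 3.61 TPM in Ctrl embryos.

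Ligands, receptors and their signalling partners made up 12 genes, including several of the FGF and TNF pathways. The FGF ligand ths was at 19.1, 8.08, 16.1 and 12.8 CPM in DomKD, against 33.7, 20.04 and 41.5 CPM in Ctrl embryos. The adaptor stumps, which FGF receptors need to signal in the mesoderm, was at 20.2, 4.33, 13.6 and 12.4 CPM in DomKD, against 45.7, 28.0 and 44.4 CPM in Ctrl embryos. For ths the highest DomKD library nearly reached the lowest Ctrl library, while stumps kept a clear gap. The receptor gene htl is outside the set and was lower by a smaller amount (log2 fold change -0.85, edgeR, standard error 0.22, adjusted p = 0.0182). Of other FGF genes outside the set, bnl was also lower (-0.93, edgeR, adjusted p = 0.0184). The genes pyr (-0.32, edgeR, adjusted p = 0.552) and btl (0.03, adjusted p = 0.919) did not pass the test.

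In the TNF pathway, the metalloprotease gene Tace was at 3.06, 1.53, 3.56 and 1.53 CPM in DomKD, against 11.96, 11.7 and 17.2 CPM in Ctrl embryos. The TNF receptor gene grnd was at 18.6, 8.78, 21.2 and 9.72 CPM in DomKD, against 29.2, 25.7 and 45.8 CPM in Ctrl embryos. Tace had low values in all DomKD libraries, and grnd a narrow gap, with DomKD replicates 1 and 3 high. The second receptor gene, wgn, had a ratio of 0.466, while the ligand gene egr averaged 119 CPM in DomKD and 112 CPM in Ctrl embryos without passing the test (edgeR, adjusted p = 0.65). The receptor kinase Alk (0.193), the Wnt receptor drl (0.333), the discoidin receptor smal (0.350), the guidance cue Sema2b (0.265), the phosphatase Ptp52F (0.383), the kinase Pask (0.198) and mthl2 (0.333), a receptor of the methuselah family, completed this group.

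Several of the genes are best known from neurons, though the embryos have no neurons at this stage. The neuronal RNA-binding protein gene elav was at 11.8, 8.21, 14.1 and 5.55 CPM in DomKD, against 33.4, 33.1 and 47.6 CPM in Ctrl embryos. The serotonin receptor gene 5-HT2A was at 8.63, 2.86, 6.605 and 6.06 CPM in DomKD, against 19.9, 10.2 and 17.3 CPM in Ctrl embryos. The lowest DomKD value was in replicate 4 for elav and in replicate 2 for 5-HT2A. The gene arg shares exons with elav on the other strand and was higher in DomKD embryos (log2 fold change 1.82, edgeR, adjusted p = 0.00557), at 1.56 CPM in DomKD and 0.442 CPM in Ctrl embryos.

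Weaker members of this kind were the acetylcholine receptor subunit nAChRbeta2 (0.196), its chaperone RIC-3 (0.137), the receptor subunit GABA-B-R2 (0.223), the histamine-gated channel HisCl1 (0.161), and the neuropeptide genes Orcokinin (0.167) and ITP (0.491). These 6 were at 0.602 to 2.79 TPM in Ctrl embryos. Another 8 genes have roles in taste, smell or vision, among them the opsin Rh4 (0.257), the odorant-binding protein Obp56a (0.438), the ionotropic receptors Ir31a (0.379) and Ir62a (0.352), the gustatory receptor Gr47b (0.328), and the photoreceptor genes chp (0.361), CarT (0.149) and inaF-D (0.198). Apart from Obp56a, their mean counts lay under 20. For HisCl1, the gene Sbf shares exons on the other strand and was also lower (edgeR, adjusted p = 0.00107), at 14.4 CPM in DomKD and 31.2 CPM in Ctrl embryos.

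Regulators of the cytoskeleton gave 10 genes. The filamin-type actin binder jbug was at 28.2, 18.3, 37.8 and 19.2 CPM in DomKD, against 69.0, 49.3 and 95.2 CPM in Ctrl embryos. The microtubule-associated protein gene corn was at 35.2, 15.8, 31.9 and 20.2 CPM in DomKD, against 60.3, 58.1 and 75.9 CPM in Ctrl embryos. For corn, the gap between the groups was wider than the range of the DomKD libraries, for jbug it was narrower, and DomKD replicate 2 was lowest in both. Shrm (0.451), a regulator of apical constriction, and the ubiquitin ligase Trim9 (0.455) had over 100 counts on average, whereas Unc-115a (0.225), Rab3-GEF (0.285) and Bili had few. Act87E had a ratio of 0.0716 from at most 35 counts, and its reads may be shared with other actin genes.

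Among 20 genes for enzymes, transport and other functions, Atx-1, a gene of the ataxin family, was at 21.8, 15.1, 17.2 and 13.3 CPM in DomKD, against 22.9, 45.5 and 32.9 CPM in Ctrl embryos. Ctrl replicate 2 lay just above DomKD replicate 1, and the other Ctrl libraries were well above all DomKD libraries. The heat shock cognate gene Hsc70-2 was at 1.13, 1.78, 0.847 and 3.07 CPM in DomKD, against 9.81, 4.57 and 11.7 CPM in Ctrl embryos, a ratio of 0.196. Corin, a gene for a serine protease, had the lowest ratio among genes with at least 30 counts on average (0.105), with 0.0731 to 2.12 CPM in DomKD and 6.19 to 7.67 CPM in Ctrl embryos. Its exons overlap those of Rpe on the other strand, which was at 167 CPM in DomKD and 209 CPM in Ctrl embryos. The other 17 genes had ratios between 0.164 and 0.498, among them VhaM9.7-a (0.164), a subunit of the proton pump of vesicles, the eye pigment gene cd (0.270), the ecdysone-inducible gene ImpE2 (0.417), and eEF1alpha2 (0.474), a translation elongation factor. The RNA regulator Gld2 (0.208) is a poly(A) polymerase.

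Non-coding RNAs and pseudogenes made up 25 genes. There were 10 antisense RNAs with a median ratio of 0.266, led by asRNA:CR44969 (0.0855), asRNA:CR45912 (0.143) and asRNA:CR43609 (0.145). Another 6 long RNAs and 2 pseudogenes had a median of 0.4, among them roX2 (0.334), which is part of the dosage compensation complex that acts on the male X chromosome. The 3 tRNA genes had ratios of 0.303 to 0.428 and up to 104 TPM in Ctrl embryos, where the short length turns few counts into a high TPM. These and the snoRNAs have near-identical copies, so their counts are uncertain.

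The 4 snoRNAs, guides for pseudouridine in ribosomal RNA, had ratios of 0.272 to 0.386 from 10.9 to 14.3 counts on average. For 2 of them the place in the genome matters. Psi28S-3316d (chromosome 2R, positions 21330434 to 21330565, plus strand) and Psi28S-3316e (positions 21330736 to 21330867) lie 170 nt apart inside the span of dom, on its strand and outside its exons, and dom is the gene that the hairpin targets. Psi28S-3316d had 0.403, 0.318, 0.508 and 0.511 CPM in DomKD, against 0.797, 1.70 and 1.42 CPM in Ctrl embryos. Psi28S-3316e had 0.726, 0.318, 0.508 and 0.292 CPM in DomKD, against 1.10, 1.30 and 1.19 CPM in Ctrl embryos. Both were lower by less than dom, whose ratio was 0.038, and the groups of Psi28S-3316d came close. The other snoRNAs lie within kra and pAbp, which did not pass the test (edgeR, adjusted p = 0.147 for kra and 0.736 for pAbp). Of the 4 genes with no role given here, aus had a ratio of 0.178, hog of 0.0944, VepD of 0.293 and FBgn0029082, which has no entry in the annotation used, of 0.188.

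Over all genes, edgeR's quasi-likelihood test called 1195 of 7727 genes lower in DomKD embryos (15.5%) and 820 higher (10.6%, adjusted p under 0.05, Benjamini-Hochberg). Among the 845 zygotic genes, 218 were lower (25.8%) and 89 higher (10.5%). With size factors from Zelda-zygotic genes, 986 of all genes were lower and 150 higher, and 246 of the zygotic genes were lower and 40 higher, so the counts of higher genes depend on the scaling. Of the 144 genes 140 were called lower, which follows from how they were chosen and is no result about them. Their log2 fold changes lay between -6.67 and -0.94 with a median of -1.63, against a median of -0.14 over zygotic genes and 0.00 over all genes tested. The biological coefficient of variation was 11.6%.

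The genes without a call were ci and danr (adjusted p = 0.0558 for each), AdamTS-B (0.084) and E5 (0.0945). The gene ci had the highest mean count of the set. The condition that the groups do not overlap was met by 1804 of all 7727 genes in the lower direction (23.3%) and by 243 of the 845 zygotic genes (28.8%). In the higher direction, 89 zygotic genes did not overlap. A ratio of at most 0.5 was found in 217 zygotic genes, and a ratio of at least 2 in 28. Without Ctrl replicate 4, edgeR called 88 of the 135 genes of the set that still had 10 counts on average, and without DomKD replicate 2 it called 110 of 144. Over all genes tested, these fits called 799 and 851 lower, and the calls in the set follow from how it was chosen.

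The counts of the rule did not use the structure or place of the genes, but the names did leave out CG-numbered genes. The set is therefore compared with the 472 other zygotic genes that are not CG-numbered. By the Ensembl annotation, 143 of the 144 could be placed, and 118 of these code for protein (82.5%), against 76.4% of the 472. The span from first to last exon had a median of 6551 nt in the set, against 3410.5 nt in the 472. Over protein-coding genes alone, the medians were 10034 nt in the set and 4984.5 nt in the others. Spans of over 20 kb were found in 42 genes of the set (29.4%), against 18.7% of the 472. With CG-numbered genes on both sides, these shares were 23.8% of 193 genes that met the counts and 14.9% of the other zygotic genes. Among the long genes were Antp (102976 nt), Ubx (77804 nt), ds (74971 nt), wb (65236 nt) and ths (57608 nt). Genes with a single block of exons made up 11.9% of the set and 28.5% of the 472.

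Put the other way round, with CG-numbered genes included, the share of zygotic genes that met the counts of the rule was 18.4% for spans under 2 kb, 19.9% from 2 to 5 kb, 26.7% from 5 to 20 kb, 32.7% from 20 to 50 kb and 31.8% above. The genes over 50 kb number 44, of which 14 met them. By the mean count in Ctrl embryos, which leaves out the DomKD counts, the share was 8.48% from 10 to 20 counts, 37.6% from 20 to 50, 31.0% from 50 to 200, 16.0% from 200 to 1000 and 4.4% above. None of 22 genes with under 10 Ctrl counts met the rule, whose limits on the mean count and the ratio bear on the lowest bins. The median Ctrl count was 40.8 in the set, against 42 in the 651 other zygotic genes and 50 in the 472. The mean over all 7 libraries had a median of 24.4 in the set and 40.9 in the 651, but it holds the lower DomKD counts that chose the set. These shares are descriptions over genes, which are not independent replicates, and the part of counting error in them was not tested.

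**Figure D4:**
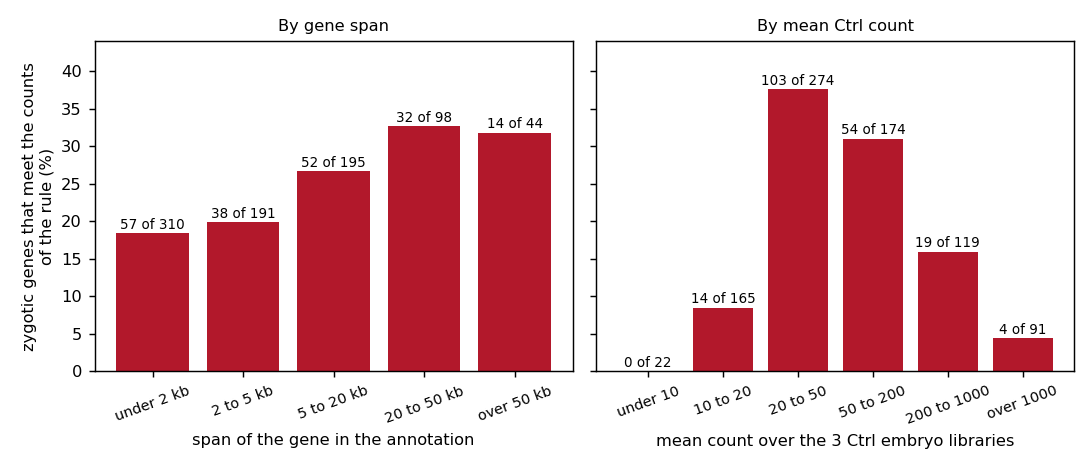
Percent of zygotic genes that meet the counts of the rule, CG-numbered genes included, by the span of the gene (left) and by its mean count over the 3 Ctrl embryo libraries (right); labels give the number of genes. The share is 18.4% for the shortest and 31.8% for the longest genes, and by Ctrl count it is highest from 20 to 50 counts (37.6%) and 4.4% over 1000 counts.

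By chromosome, 37 genes lie on 2R, 40 on 3R, 22 on 2L, 21 on 3L, 17 on X, 5 on chromosome 4 and 1 on Y. Of the set, 25.9% lay on 2R and 28.0% on 3R, against 18.7% and 23.4% of the 472 other zygotic genes. For 2L, 3L and X the shares were 15.4%, 14.7% and 11.9%, against 20.4%, 26.2% and 9.87%. The small chromosome 4 held 3.5% of the set, against 1.29% of the 472, through ci, onecut, dpr7, RhoGAP102A and asRNA:CR43425. With CG-numbered genes on both sides, it held 2.59% of the genes that met the counts and 1.09% of the other zygotic genes. The gene on Y was CR46150. There were 11 pairs of neighbours within 20 kb. Beside the pairs already named, they were DIP-eta with DIP-theta, BaraC with HmgZ, Orcokinin with fzr2, Sox14 with Pask, corn with Dscam2, alpha-Est6 with Rtnl2, Hsc70-2 with sim, and dpr7 with RhoGAP102A. The spans of wb and CR43639 overlap, and the other distances ran from 86 nt between alpha-Est6 and Rtnl2 to 10366 nt between Hsc70-2 and sim. Since the strand setting of the counting is not known, reads of genes that overlap others are uncertain.

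The held part of the study's class table covers 1999 genes, and 38 genes of the set are in it. Of these, 26 are in its H2A.Z-negative class, 7 in its H2A.Z-positive class and 5 in the Zelda-dependent class. The study split these classes by an H2A.Z nucleosome predicted at or just downstream of the start site. It reports H2A.Z just upstream in a part of the H2A.Z-negative genes, so that class does not mean a promoter free of H2A.Z. The other zygotic genes in that table were 72 H2A.Z-negative, 10 H2A.Z-positive and 70 Zelda-dependent. The held part is no random sample, so no test was made. The egg limit also left out genes with more egg counts, so these numbers do not give the share of each class among all genes lower in DomKD embryos. By RNA-seq, the study reports that transcripts fell most for H2A.Z-positive genes and did not change for Zelda-dependent genes.

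Lists of genes with a known role in the early embryo, written with earlier results of these data known, place the set among its pathways. Genes of the set were chosen as lower, so counts and medians of lists that hold them are partly fixed by the rule. Of 21 segmentation transcription factors tested, 3 were lower and 4 higher, with a median log2 fold change of 0.06. The lower ones were drm and knrl of the set and sob (log2 fold change -0.81, edgeR, standard error 0.23, adjusted p = 0.0283), and drm and sob are paralogs of the odd-skipped family. By contrast kni, the paralog of knrl, was higher (0.53, standard error 0.16, adjusted p = 0.0352), at 96.2 CPM in DomKD and 69.5 CPM in Ctrl embryos, but did not pass the test with size factors from Zelda-zygotic genes (0.43).

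Of 15 genes of segment polarity and Wnt signalling tested, 5 were lower and 2 higher, with a median of -0.62. The set holds gsb and mid of these, and ci, which did not pass the test. Outside the set, 3 of 12 were lower and 2 higher, with a median of -0.39. Lower there was wg, the main Wnt ligand of the epidermis (-0.70, edgeR, standard error 0.17, adjusted p = 0.0137). In the homeotic list, 5 of 6 were lower, with a median of -1.52, and none was higher by an unadjusted p or in DESeq2. All 5 are in the set, so this count and median follow from the rule. The 1 tested gene outside the set, abd-A, had no call (log2 fold change -0.14). In the dorsoventral list, 9 of 28 were lower and 4 higher, with a median of -0.01. Outside the set, 4 of its 23 genes were lower and 4 higher, and the set holds pnr, tup, sim, ind and ths.

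For BMP and activin signalling, 4 of 23 were lower and 9 higher, and only dally is in the set. For EGFR and FGF signalling, 7 of 18 were lower and 1 higher, with a median of -0.40, and ths and stumps are in the set. The 16 outside the set had 5 lower and 1 higher, with a median of -0.23. In the mesoderm and myoblast list, 6 of 14 were lower and none higher, with a median of -0.52 and 1 higher by an unadjusted p and in DESeq2, and tin, eya and if are in the set. Among its 11 genes outside the set, 3 were lower and none higher, with a median of -0.40. For endoderm, hindgut and trachea, 5 of 15 were lower and 3 higher, with grn and knrl in the set. Its 13 others had 3 lower and 3 higher, with a median of 0.37.

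For cell adhesion and axon guidance, 7 of 34 were lower and none higher, with a median of -0.10 and 1 higher by an unadjusted p but none in DESeq2, and Sema2b, beat-IIIc and dpr1 are in the set. Its 31 genes outside the set had 4 lower and none higher, with a median of -0.08. Early neural genes gave 3 lower and 1 higher of 17, with elav and ind in the set, and 1 lower and 1 higher of 15 outside it (median 0.29). Nuclear receptor and ecdysone genes gave 4 lower and 5 higher of 18, with knrl and ImpE2 in the set, and 2 lower and 5 higher of 16 outside it (median 0.41). The Notch and Bearded list (13 tested, 1 lower, 1 higher) and the list of cellularization and early zygotic genes (18 tested, 0 lower and 6 higher) hold no gene of the set. In the early zygotic list, edgeR gave 0 lower and 11 higher at an unadjusted p under 0.05, and DESeq2 called 0 lower and 10 higher. With size factors from Zelda-zygotic genes, 3 genes of the early zygotic list were higher, 2 of the nuclear receptor list, 1 each of the segmentation, segment polarity, dorsoventral and BMP lists, and 0 of the endoderm and EGFR lists. The early zygotic list summed to 10801 to 14237 CPM in DomKD and 8942 to 11831 CPM in Ctrl embryos.

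**Figure D5:**
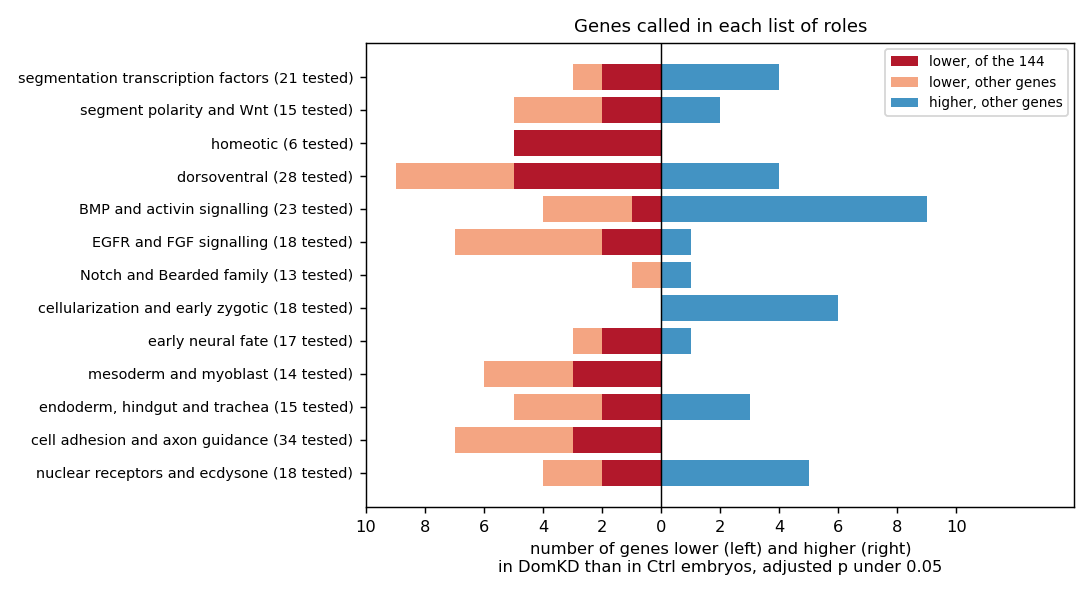
Number of genes of each list of roles that edgeR called lower (left of 0) and higher (right of 0) in DomKD embryos; dark red is the part in the set, light red and blue are other genes, and the number tested stands beside each name. The homeotic list has 5 of 6 lower, all in the set, while the list of cellularization and early zygotic genes has none lower and 6 higher. The dark red part follows from how the set was chosen.

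Of the markers of differentiated cells, few reached 10 counts on average. Of 15 neuronal markers, 6 could be tested, with 3 lower and 1 higher. The list summed to 62.0 to 84.3 CPM in DomKD and 95.97 to 116 CPM in Ctrl embryos. These sums hold elav, which the rule chose as lower, at means of 9.90 CPM in DomKD and 38.0 CPM in Ctrl embryos. Of the 5 neuronal markers tested outside the set, 2 were lower and 1 higher, with a median log2 fold change of 0.04. Glial markers (4 of 10 tested) had 3 lower and none higher (1 by an unadjusted p, none in DESeq2), at 121 to 146 CPM in DomKD and 164 to 191 CPM in Ctrl embryos. Muscle markers (4 of 17 tested) had 2 lower, 1 of them Act87E of the set, at 49.6 to 62.2 CPM in DomKD and 62.6 to 80.6 CPM in Ctrl embryos. Those of septate junctions and cuticle (10 of 23 tested) had 2 lower, at 470 to 492 CPM in DomKD and 549 to 575 CPM in Ctrl embryos.

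Markers of blood cells and fat body (3 of 18 tested, 70.8 to 87.0 CPM in DomKD and 66.3 to 92.1 CPM in Ctrl embryos) and of follicle cells and eggshell (3 of 21 tested, the Yp genes) had no call in edgeR, none with an unadjusted p under 0.05 and none in DESeq2. Testis markers had 1 lower and 1 higher of 3 tested among 16, at 310 to 341 CPM in DomKD and 305 to 341 CPM in Ctrl embryos. Digestive enzymes and immune response genes had none with 10 counts on average, and summed to at most 1.05 and 1.44 CPM in DomKD and 0.613 and 1.70 CPM in Ctrl embryos. The part of these markers in the level of the 144 genes was not tested.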

How the data were processed

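RNA-seq libraries of DomKD embryos, Ctrl embryos and Ctrl unfertilized eggs were used. Per the study's methods and the submitters' processing notes, the authors made TruSeq stranded total RNA libraries, processed reads in snakePipes 2.0.2 (its mRNA-seq mode, reads trimmed), used dm6 and Ensembl release 96, and counted with featureCounts. The deposited table holds unnormalized counts for each gene, with exon lengths. The aligner, the strand setting and the treatment of multi-mapped reads are not given in the sources used here. The table has 1 further column that matches no sample and was not used.

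CPM are counts over the column total, and TPM use the deposited lengths. Genes averaging 10 or more counts over the 7 embryo libraries were tested with edgeR 4.0.16 (quasi-likelihood, TMM, Benjamini-Hochberg) in R 4.3.3, with condition as the only term, and the script was tested on simulated data. DESeq2 1.42.0, other scalings, filters, libraries, a replicate block and limits of the rule were alternatives. Ensembl release 115 (dm6) gave gene names, types and positions, and named 17626 of 17753 genes. A group at 3 counts or fewer in every library is at the floor. With these depths, a gene near 10 counts is limited by counting error.

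The members and gene lists were chosen with earlier results of these data known. Genes were named by rule: the 12 highest in Ctrl TPM, the 12 lowest ratios with at least 30 counts on average, members in a list, those 3 on each side of the limit, neighbours within 20 kb, and dom, His2Av and zld. Others are named by role, in groups formed after their values were seen, and so were egr, abd-A, sob, kni, htl, bnl, pyr, btl, wg, the Yp genes and genes that overlap members. The class table is a truncated copy of the study's source data. Promoter sequences were not used. Plots were made in matplotlib 3.10.9 (Python 3.11.15).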

Additional observations from a re-analysis of the deposited data

Results flagged for a closer look

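In 7 of the 144 genes, 1 of the 4 DomKD libraries lay far from the other DomKD libraries, by Dixon's test at 95%, where chance gives about 7.2. Replicate 4 was the distant library for dpr4, at 0.0731 CPM (1 count, with 0 in the others), for Orcokinin, at 0.146 CPM (others 0.403 to 0.446), and for lncRNA:CR45181, at 0.292 CPM (others 0.764 to 0.847). Replicate 3 was high for FBgn0029082, at 2.12 CPM (others 0.403 to 0.584), and for DIP-epsilon, at 1.27 CPM (others 0.726 to 0.804). Replicate 2 was low for Gsc, at 0.127 CPM (others 0.565 to 0.593), and replicate 1 was low for mthl2, at 0.242 CPM (others 0.508 to 0.511). No explanation was tested.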

How the results depend on the processing

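The number of genes that met the rule with a name depended most on the limits on counts. It was 74 with an egg limit of 0 counts, 239 with a mean of at least 5 counts and 85 with a mean of at least 20 counts, and 121 (without Ctrl replicate 4) to 174 (without DomKD replicate 3) with 1 library left out. None of the 144 genes had a positive log2 fold change in any fit, which follows from how they were chosen and is no result about them. Of the 144, edgeR called 88 (of 135 fitted, without Ctrl replicate 4) to 131 with 1 library left out, and DESeq2 called 131.

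Over all genes, the number lower was 784 with the replicate block and 799 to 1076 with 1 library left out. The number higher was 150 when Zelda-zygotic genes set the size factors, 1301 with all 11 libraries and 424 with the block, and 483 (without DomKD replicate 2) to 748 with 1 library left out, 493 of them without Ctrl replicate 4. Without DomKD replicate 2 and Ctrl replicate 3, chosen after seeing the data, 715 were lower and 281 higher. Zygotic genes lower were 440 with no filter, 66 with a filter at a mean of 50 counts, and 129 (without Ctrl replicate 4) to 228 with 1 library left out. Zygotic genes higher were 40 with Zelda-zygotic size factors, 136 with no filter, 55 with the filter at 50 counts, 38 with the block, 51 (without Ctrl replicate 2) to 98 with 1 library left out, and 48 without DomKD replicate 2 and Ctrl replicate 3. Zelda-zygotic size factors moved the median log2 fold change of all genes to -0.095 and that of His2Av to -0.0365. With 1 library left out, that of zld lay between -0.00372 (without DomKD replicate 3) and 0.34, and that of abd-A between -0.46 and 0.26 (without Ctrl replicate 4), with 0.18 without DomKD replicate 2. Beyond fewer or more genes and libraries tested, the cause was not tested.

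Of 2285 values of single genes, 2023 kept their direction and side of the threshold, 245 fell short of it, 13 newly passed and 4 changed sign, while 599 of 704 counts of lists stayed within 1.5 times. Replicate numbers did not pair the libraries (correlations of deviations 0.0504, -0.0742 and -0.363), and with the replicate block 113 of the 144 genes were called lower, beside 784 over all genes tested. At 10 to 30 counts on average, most of the set is limited by counting error.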
